A study of Mus musculus with 34 samples.

Results

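Liver tumors of mice carrying both a TGFα and a c-Myc transgene were compared with liver tumors of mice carrying a c-Myc transgene alone. The 10 tumors were taken by their sample titles from a series of 34 mouse liver arrays: 3 TGFα/c-Myc tumors and 7 Myc tumors, each labelled as an individual tumor and a biological replicate. All 10 came from animals at 0 weeks on doxycycline, the drug that switched the transgenes off in other animals of the series, so by the labels the transgenes were on in both groups and c-Myc was shared by both. Total RNA of each tumor was labelled with Cy3 and hybridised on a 2-colour Agilent array against a Cy5-labelled pool of liver RNA from C57BL/6 mice of mixed gender. The labels give no strain, sex or age for the tumor-bearing mice and no promoter for either transgene. A level below is log2 of Cy3 over Cy5, so 0 is the level of the reference liver. The 3 control livers, without a transgene and also at 0 weeks on doxycycline, are given beside the tumors as a description.

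Myc is a transcription factor that drives ribosome production, nucleotide synthesis and cell division, and hepatocytes forced to express it lose much of their specialised program. TGFα is a ligand of the EGF receptor, which hepatocytes carry in abundance and through which ERK signalling is switched on. A mature hepatocyte secretes most plasma proteins, clears drugs, steroids and bile acids, disposes of nitrogen, and answers inflammation by making acute phase proteins such as serum amyloid A.

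The arrays of the groups differed in how they were made. Of the 7 Myc tumors, 6 were scanned on another scanner with a later version of the extraction software, and Myc tumor 1 alone shared scanner 1 with the 3 TGFα/c-Myc tumors and the control livers. No slide and no scan day held tumors of both groups. Between 51.5% and 56.9% of probes on the TGFα/c-Myc arrays, and between 52.7% and 72.1% on the Myc arrays, stood well above background in Cy3, and the median net Cy3 signal was 13.5 to 16.7 and 5.88 to 229 intensity units respectively. The median SD of a gene was 0.17 over the TGFα/c-Myc tumors, 0.29 over the Myc tumors and 0.16 over the control livers. The model pooled the spread of all 10 groups of the series, so the counts of the main lists are also given for a fit on the 10 tumors alone, for Myc tumor 1 within scanner 1, and for Agilent's own processed ratios in place of the ones remade here. In bulk tissue, fewer cells of a type and less RNA per cell cannot be told apart.

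The transgene was checked first. Of 3 probes for Myc, 2 read high in most tumors. Their sequences are shown because they check the c-Myc label, which both groups share, and they cannot tell the groups apart. Both are given 5′ to 3′, as printed on the array, all in lower case because no part is singled out.
Myc probe A_52_P108346: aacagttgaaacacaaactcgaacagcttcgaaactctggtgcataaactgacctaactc
Myc probe A_52_P278549: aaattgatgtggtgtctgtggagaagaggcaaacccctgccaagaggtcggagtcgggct
At the first probe the TGFα/c-Myc tumors read 4.65, 5.48 and 0.83, the Myc tumors 1.04 to 6.25 with a median of 5.16, and the control livers 0.13, 0.17 and -1.07. At the second the TGFα/c-Myc tumors read 1.67, 3.03 and 0.07, the Myc tumors 0.10 to 4.66 with a median of 3.71, and the control livers -0.086, 0.50 and 0.43. The lowest tumors at both probes were TGFα/c-Myc tumor 3 and Myc tumor 5, at 0.83 and 1.04 on the first and 0.07 and 0.10 on the second. On the first probe both lay above every control liver. On the second both lay within the range of the control livers, and so went against their labels at that probe. The tumor labelled TGFα tumor 1, outside this comparison and on the same slide as TGFα/c-Myc tumor 3, read high at the Myc probes, and whether the 2 were exchanged was not tested. TGFα/c-Myc tumor 3 and Myc tumor 5 below mean the tumors so labelled, and the counts of the main gene lists are also given without them. Myc was not called between the groups (log2 differences of -0.92 ± 0.92 and -1.61 ± 0.70 (SE), adjusted p = 0.526 and 0.107, limma). The third Myc probe did not read high in any of the 10 tumors. It read 0.02, 0.46 and 0.12 in the TGFα/c-Myc tumors and -0.96 to 0.43 in the Myc tumors, beside 0.16, -0.22 and -0.54 in the control livers. The 2 Tgfa probes did not mark the TGFα tumors, with group means of -0.22 and -0.056 in the TGFα/c-Myc tumors and -0.57 and 0.053 in the Myc tumors, so they give no check of that label.

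Across the genome, 4738 of 22273 genes (21.3%) differed between the groups at an adjusted p under 0.05 (limma), 2241 higher in the TGFα/c-Myc tumors (10.1%) and 2497 lower (11.2%). The median log2 difference over all genes was 0.0028. The values of the 3 and the 7 tumors did not overlap for 2812 genes (12.6%), 1408 of them higher (6.32%) and 1404 lower (6.30%). In the fit on the 10 tumors alone 1509 genes were called (6.78%; 766 higher, 3.44%, and 743 lower, 3.34%), and 1453 of these were also among the 4738 with the same sign. Within scanner 1 the comparison rests on Myc tumor 1 alone, whose own spread is assumed to be that of the other groups, and it called 3177 of 22257 genes (14.3%; 1176 higher, 5.28%, and 2001 lower, 8.99%), 1773 of them shared with the 4738. With Agilent's ratios 5157 genes were called (23.2%; 2384 higher, 10.7%, and 2773 lower, 12.5%), 3261 of them among the 4738. Of 95 called genes followed across the alternatives, 70 stayed called in the 10 tumors alone, 73 with Agilent's ratios and 39 within scanner 1. Leaving out TGFα/c-Myc tumor 2 lowered the count to 1445. Of 173 genes that were called and are named by list or by size, the hepatocyte lists gave 60 higher and 2 lower, and the growth lists 8 and 30. The inflammatory lists gave 6 and 19, and the fetal lists 2 and 6. Most of these genes were picked by p-value or size in this same comparison, so the splits describe the picked genes and test nothing.

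**Figure D1:**
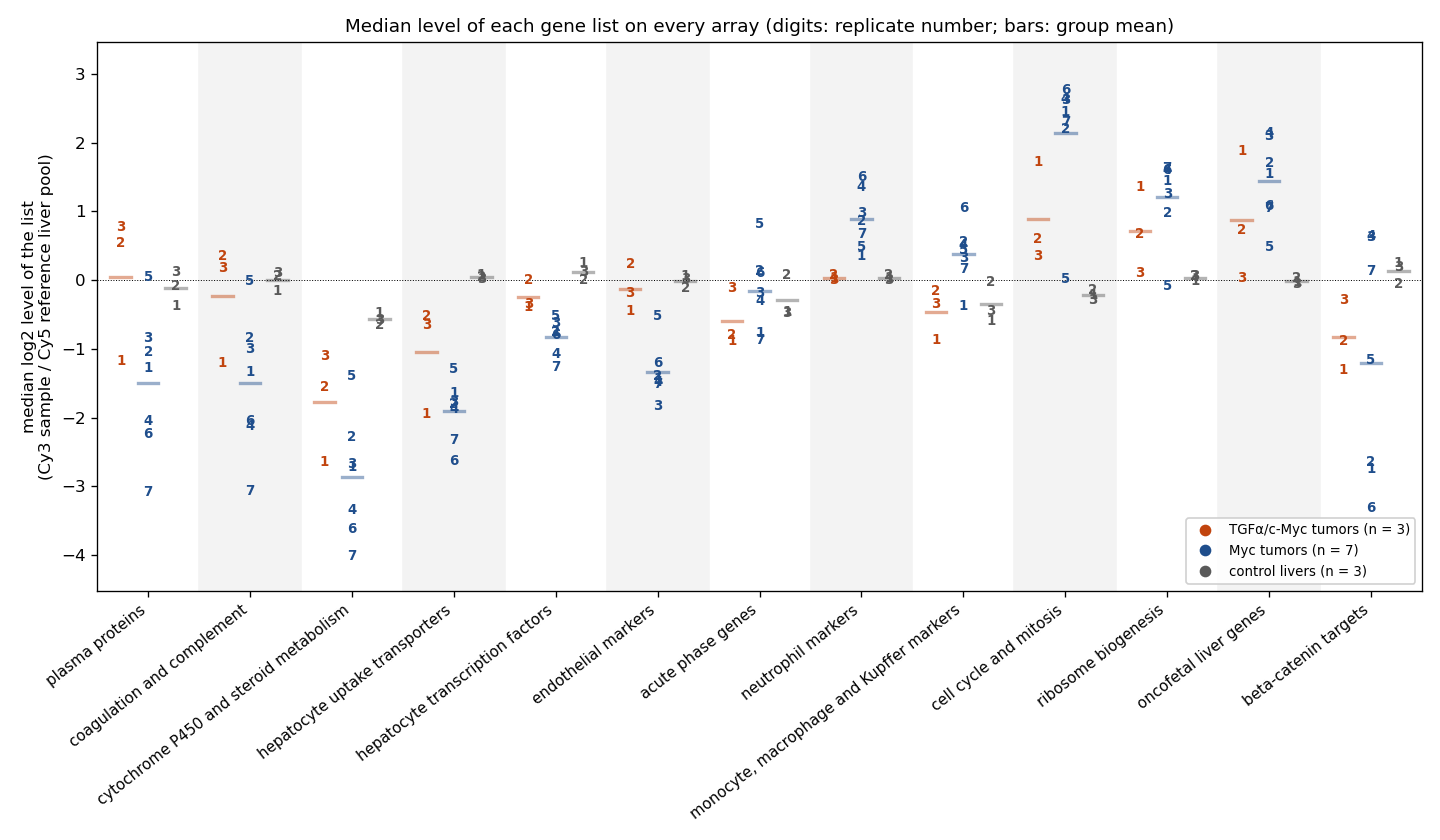
Median log2 level (Cy3 sample over Cy5 reference pool) of the measured members of 13 gene lists on each array, with digits giving the replicate number and bars the group mean. TGFα/c-Myc tumors 2 and 3 sit near the control livers for plasma proteins while tumor 1 sits at -1.17, among the Myc tumors.

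Plasma proteins, the main secretory output of the hepatocyte, were higher in the TGFα/c-Myc tumors for 16 of 22 measured genes and lower for 1, with a median log2 difference of 1.77. Histidine-rich glycoprotein (Hrg) read -1.72, 0.77 and -0.92 in the 3 TGFα/c-Myc tumors and -5.62 to -1.81 with a median of -4.48 in the Myc tumors, beside 0.69, -0.83 and -0.98 in the control livers. The groups did not overlap, TGFα/c-Myc tumor 1 being the lowest of its group and Myc tumor 5 the highest of the other. The difference was 3.52 ± 0.58 (SE, adjusted p = 0.00021), and it held in the 10 tumors alone (adjusted p = 0.0322) and within scanner 1 (2.39, adjusted p = 0.0351). Fetuin B (Fetub) was higher by 3.25 ± 0.63 (adjusted p = 0.000879). Albumin (Alb), the most familiar hepatocyte product, read -0.053, 0.95 and 1.83 against -4.49 to 0.05 with a median of -0.28, and the ranges overlapped because Myc tumors 1, 2, 3 and 5 read near 0. Its probe was saturated on 4 Myc arrays and 1 TGFα/c-Myc array, which limits these ratios, and its difference of 2.73 ± 0.79 (adjusted p = 0.0152) was not called in the 10 tumors alone (adjusted p = 0.168). Transthyretin (Ttr) was not called (0.94 ± 0.44, adjusted p = 0.137). The list's median level was -1.17, 0.55 and 0.78 in the TGFα/c-Myc tumors and -3.08 to 0.05 with a median of -1.28 in the Myc tumors, where tumor 5 alone lay among the control livers (-0.37 to 0.12). Of the whole list, the genes called higher were 2 in the 10 tumors alone, 2 within scanner 1 and 5 with Agilent's ratios.

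For clotting and complement factors the counts were 20 of 36 higher, 0 lower (1 at an unadjusted p under 0.05), with a median of 1.38. C8g, a subunit of the complement attack complex, read -1.21, 0.98 and 0.65 against -5.29 to -1.96 with a median of -2.88. C8g did not overlap between the groups and differed by 3.31 ± 0.55 (adjusted p = 0.000214), and by 3.07 against Myc tumor 1 (adjusted p = 0.0089). C9, which completes the same complex, was higher by 3.16 ± 0.61 (adjusted p = 0.000879), and mannose-binding lectin Mbl2, which starts the lectin pathway, by 3.60 ± 0.75 (adjusted p = 0.00162, and 0.0584 in the 10 tumors alone). The factors called higher were 5 in the 10 tumors alone, 5 within scanner 1 and 8 with Agilent's ratios, where the median was 0.83. Among 16 apolipoprotein and lipoprotein genes, 5 were higher and 0 lower, and those higher were 1 in the 10 tumors alone, 2 within scanner 1 and 1 with Agilent's ratios. Apoc3, which slows the clearance of triglyceride-rich particles, read -0.61, 1.00 and 0.48 in the TGFα/c-Myc tumors, -4.88 to -2.07 with a median of -3.26 in the Myc tumors and 0.55, 0.54 and 0.84 in the control livers. All 3 TGFα/c-Myc tumors stood above every Myc tumor by more than 1 log2 unit, and the difference of 3.62 ± 0.47 (adjusted p = 2.49e-05) held in the 10 tumors alone (adjusted p = 0.0108) and within scanner 1 (2.36, adjusted p = 0.0255).

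Genes of drug and steroid metabolism lay below the control livers in both groups, and fewer of them did so with TGFα. Of 40 cytochrome P450 and steroid genes, 32 had a Myc tumor mean more than 2-fold below the control livers and 20 a TGFα/c-Myc mean that low, and all 20 of the latter were low in both. Against each other, 10 of the 40 were higher in the TGFα/c-Myc tumors and 0 lower (median 1.19), while 5 in the 10 tumors alone, 1 within scanner 1 and 4 with Agilent's ratios were higher. Cyp1a2, which oxidises caffeine and aromatic amines, read -2.45, -1.73 and -1.61 against -5.06 to -3.04 with a median of -3.60, beside -0.55, 0.34 and -0.34 in the control livers. It did not overlap between the tumor groups and differed by 1.88 ± 0.61 (adjusted p = 0.0281). Cyp4f14 was higher by 2.43 ± 0.44 (adjusted p = 0.000477), while the ethanol-oxidising Cyp2e1 (1.29 ± 0.82, adjusted p = 0.284) was not called. Of 37 conjugating enzymes 11 were higher and 0 lower (limma, 2 lower at an unadjusted p under 0.05). Among the higher were the sulfotransferase Sult2a8 (3.88 ± 0.81, adjusted p = 0.00169) and the glucuronosyltransferase Ugt2b1 (3.27 ± 0.72, adjusted p = 0.00241). With Agilent's ratios 2 of the 37 were called lower. Sult2a4, a sulfotransferase outside the list, was lower without overlap (-3.11 ± 1.07, adjusted p = 0.039, limma). It read 0.68 to 3.83 in the Myc tumors, and 2.59, -0.77 and -0.98 in the control livers. Of 13 carboxylesterases, which hydrolyse esters and drugs, 6 were higher (median 1.52). Called higher among the conjugating enzymes were 4 in the 10 tumors alone, 2 within scanner 1 and 10 with Agilent's ratios, and among the carboxylesterases 1 in the 10 tumors alone, 0 (1 at an unadjusted p under 0.05) within scanner 1 and 5 with Agilent's ratios.

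Uptake carriers of the hepatocyte's blood side were higher for 6 of 19 and lower for 0 (median 1.28), with 5 in the 10 tumors alone, 2 within scanner 1 and 6 with Agilent's ratios. Slc22a7, an organic anion carrier, read -0.97, 0.59 and -0.018 against -4.83 to -1.03 with a median of -3.85, and 2.43, 2.10 and 1.98 in the control livers. Every TGFα/c-Myc tumor was above every Myc tumor, and every control liver above both, but Myc tumor 1, at -1.03, stood next to the TGFα/c-Myc tumors. The difference of 3.51 ± 0.60 (adjusted p = 0.000322) was 0.90 within scanner 1 (adjusted p = 0.495). The bile acid and steroid carrier Slco1a1 differed by 3.38 ± 0.58 (adjusted p = 0.000331) and by 2.66 within scanner 1 (adjusted p = 0.0435). Slc22a28 was higher by 3.79 ± 0.69 (adjusted p = 0.00047), whereas the main bile acid importer Slc10a1 was not called (0.31 ± 0.59, adjusted p = 0.762).

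**Figure D2:**
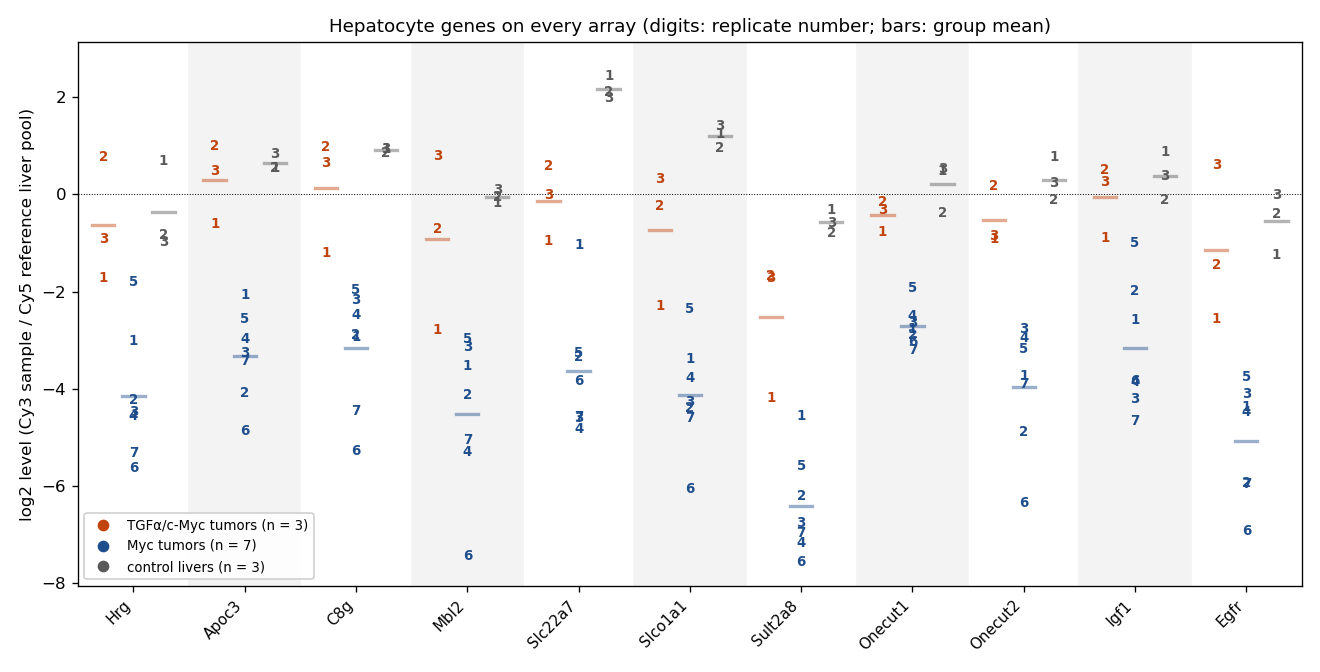
Log2 level of 11 hepatocyte genes on each of the 13 arrays, with digits giving the replicate number and bars the group mean. For Onecut1 the TGFα/c-Myc tumors lie between -0.76 and -0.17 and the Myc tumors between -3.20 and -1.93.

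Other hepatocyte functions gave fewer calls, or calls in both directions. Of 13 urea cycle and nitrogen genes, 1 was called, ornithine transcarbamylase Otc (2.03 ± 0.66, adjusted p = 0.0287), and carbamoyl phosphate synthetase Cps1 was not (1.22 ± 0.60, adjusted p = 0.155). The list's median difference was 0.18, and -0.25 with Agilent's ratios. Of 20 bile acid genes 3 were higher (1 in the 10 tumors alone, 0 (4 at an unadjusted p under 0.05) within scanner 1 and 2 with Agilent's ratios), and Cyp7a1, the rate-limiting enzyme of bile acid synthesis, was not called (-0.27 ± 0.58, adjusted p = 0.789). Amino acid breakdown was split, with 8 of 40 higher and 3 lower. The list's median of 0.29 turned to -0.053 with Agilent's ratios. Among the higher ones were Agxt, which detoxifies glyoxylate (2.89 ± 0.58, adjusted p = 0.00118), and sarcosine dehydrogenase Sardh (1.94 ± 0.27, adjusted p = 4.79e-05). Among the lower was Ivd, which did not overlap between the groups (-0.79 ± 0.15, adjusted p = 0.000716, limma). In the 10 tumors alone 3 of the 40 were higher and 4 lower, beside 3.44% and 3.34% of all genes. Values of the 2 groups did not overlap for 1 higher and 5 lower, beside 6.32% and 6.30% of all genes. Of 18 glucose and glycogen genes 4 were higher and 1 lower, led by the fructose-handling kinase Tkfc. Tkfc read 0.51, 0.46 and 0.46 against -2.88 to -0.87 with a median of -1.93, so the TGFα/c-Myc tumors were tightly grouped and apart from the others (2.45 ± 0.30, adjusted p = 1.74e-05). The hormone Fgf21 was higher by 2.57 ± 0.53 (adjusted p = 0.00147). The major urinary proteins, pheromone carriers made in bulk by mouse liver, were more than 2-fold below the control livers for all 6 measured members in both tumor groups. Mup1 read -4.75, -2.26 and 0.70 against -9.87 to -5.28 with a median of -6.40, and its difference of 4.99 ± 1.50 (adjusted p = 0.0189) came with a spread of more than 5 log2 units among the TGFα/c-Myc tumors.

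Set beside the control livers, most secreted-protein genes of the TGFα/c-Myc tumors lay within 2-fold of normal liver or above it. Of 22 plasma protein genes, 2 had a TGFα/c-Myc mean more than 2-fold below the control mean, against 15 for the Myc tumors. For clotting and complement the counts were 6 and 26 of 36. For the uptake carriers they were 9 and 14 of 19, and for the conjugating enzymes 15 and 25 of 37. Over all genes 477 (2.14%) and 1674 (7.52%) were that low. The TGFα/c-Myc means were nearer to the control livers on the high side too, where 502 and 1804 of all 22273 genes were more than 2-fold above. These counts are of group means and were not tested.

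The transcription factors that set hepatocyte identity were higher for 12 of 25 and lower for 0 (median 0.47), and the list's median level did not overlap between the groups, -0.39, 0.0032 and -0.34 in the TGFα/c-Myc tumors and -1.26 to -0.52 with a median of -0.76 in the Myc tumors. The factors called higher were 5 in the 10 tumors alone, 4 within scanner 1 and 10 with Agilent's ratios. The Onecut factors belong to the hepatocyte nuclear factors. Onecut1 read -0.76, -0.17 and -0.31 against -3.20 to -1.93 with a median of -2.78, and 0.48, -0.38 and 0.53 in the control livers. All 3 TGFα/c-Myc tumors were above every Myc tumor by more than 1 log2 unit, and the difference of 2.30 ± 0.32 (adjusted p = 3.88e-05) held in the 10 tumors alone (adjusted p = 0.00385) and within scanner 1 (2.36, adjusted p = 0.00921). Onecut2 was higher too (3.43 ± 0.51, adjusted p = 7.18e-05, and 0.00161 within scanner 1). The oestrogen receptor Esr1 read 0.39, 2.08 and 0.40 against -2.75 to -1.10 with a median of -2.03 (2.95 ± 0.66, adjusted p = 0.00273). Ppara, which drives fatty acid oxidation, was higher by 1.31 ± 0.32 (adjusted p = 0.00528). Hnf4a, a broad regulator of hepatocyte genes, was higher by 0.47 ± 0.16 (adjusted p = 0.039; 0.0779 in the 10 tumors alone), and Cebpa was not called (-0.011 ± 0.33, adjusted p = 0.988).

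Promoters of a gene from each side are shown, since secreted hepatocyte proteins and serum amyloid proteins lay on opposite sides of the comparison. The 250 bases before the transcription start in RefSeq's table (GRCm38.p6) were read for Alb and Hrg, which were higher, and for serum amyloid Saa1 and Saa3, which were lower. Capitals mark matches to TTGCNNAA, a spelling of the C/EBP motif, on either strand.
Alb, chr5:90460620-90460869, plus strand: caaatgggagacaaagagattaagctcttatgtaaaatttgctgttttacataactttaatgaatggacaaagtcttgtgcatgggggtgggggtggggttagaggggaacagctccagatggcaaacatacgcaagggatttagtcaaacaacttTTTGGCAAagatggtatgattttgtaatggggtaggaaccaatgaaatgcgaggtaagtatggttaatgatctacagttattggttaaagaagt
Hrg, chr16:22950822-22951071, plus strand: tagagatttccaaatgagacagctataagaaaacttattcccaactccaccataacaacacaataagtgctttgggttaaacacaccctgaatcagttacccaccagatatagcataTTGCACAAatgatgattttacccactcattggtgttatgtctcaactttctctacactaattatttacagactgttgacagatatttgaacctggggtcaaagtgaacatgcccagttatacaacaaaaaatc
Saa1, chr7:46742981-46743230, minus strand: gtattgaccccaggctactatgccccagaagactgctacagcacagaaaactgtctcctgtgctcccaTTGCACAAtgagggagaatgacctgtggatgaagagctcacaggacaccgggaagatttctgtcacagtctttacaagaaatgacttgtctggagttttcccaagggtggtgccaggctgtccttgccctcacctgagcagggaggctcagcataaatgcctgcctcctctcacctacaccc
Saa3, chr7:46715677-46715926, minus strand: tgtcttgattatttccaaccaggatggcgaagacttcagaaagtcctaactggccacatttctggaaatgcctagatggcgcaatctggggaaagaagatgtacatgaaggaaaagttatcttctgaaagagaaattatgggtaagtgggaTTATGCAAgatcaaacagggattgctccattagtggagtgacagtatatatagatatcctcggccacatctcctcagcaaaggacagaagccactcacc
Each of the 4 windows held 1 match, 94, 133, 182 and 99 bases before the start, counted from the first letter of the match as printed. Of all 32851 promoter windows 9.56% held the motif. Among the named genes it was in 24 of 106 windows of the higher genes (22.6%) and 16 of 80 of the lower (20%). For named genes not called it was in 2 of 36 (5.56%). A gene can have several windows, and Cyp4f14 gave 4 of the 24. The HNF1 spelling given next was in 14 of 106 windows of the higher genes (13.2%) and 3 of 80 of the lower (3.75%). These shares were not tested, and the 4 genes shown were picked by hand. The other motifs searched were the Myc E-box CACGTG (6.02% of all windows, none of the 4 shown), the HNF1 spelling GTTAAT (6.43%, in Alb alone of the 4), an NF-kB spelling, GGGNN followed by TTTCC (1.41%), the HNF4 spelling CAAAGTCCA (0.384%) and the STAT spelling TTCCNGGAA (0.913%), each on both strands, and none of the last 3 was in the 4 windows. The motifs do not overlap in these windows, and a match is a description of letters and no evidence of binding.

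The receptor for TGFα, the EGF receptor (Egfr), had the fifth largest positive difference of all called genes. Egfr read -2.56, -1.45 and 0.61 in the TGFα/c-Myc tumors, -6.92 to -3.75 with a median of -4.49 in the Myc tumors and -1.26, -0.40 and -0.0049 in the control livers. Every TGFα/c-Myc tumor was above every Myc tumor, tumor 3 lying above the control livers and tumors 1 and 2 below them. The difference of 3.94 ± 0.71 (adjusted p = 0.000448) held in the 10 tumors alone (adjusted p = 0.0226), and within scanner 1 it was 3.24 (adjusted p = 0.061). All 6 Egfr probes gave the same sign, 5 of them with differences from 1.92 to 3.94, and the other, which was not well above background in any Myc tumor, 0.47. Of 19 genes of the receptor family and its ligands, 2 were higher and 0 lower, beside 10.1% and 11.2% of all genes. The ligand amphiregulin (Areg) was not well above background in any of the 10 tumors. Of 16 genes listed as feedback or response genes of ERK signalling, 3 were higher and 1 lower (median 0.12), beside the same shares of all genes. The phosphatase Dusp6 (0.54 ± 0.39, adjusted p = 0.345) and Spry4 (0.12 ± 0.38, adjusted p = 0.858) were not called. Phlda1 read -2.82, -1.09 and -2.55 against -5.21 to -3.55 with a median of -4.70 and 0.16, 0.78 and 0.83 in the control livers, so it was higher than in the Myc tumors (2.25 ± 0.53, adjusted p = 0.00387) and yet below every control liver. Spred1 was higher (1.46 ± 0.34, adjusted p = 0.00364), cyclin D1 (Ccnd1), a mitogen-induced driver of the cell cycle, was higher by 1.76 ± 0.57 (adjusted p = 0.0296; 0.0506 in the 10 tumors alone), and Emp1 fell by 1.95 (adjusted p = 0.00953).

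Insulin-like growth factor 1 (Igf1), which mature hepatocytes secrete under growth hormone, read -0.90, 0.51 and 0.26 against -4.66 to -0.995 with a median of -3.85. The groups did not overlap, although Myc tumor 5 at -0.995 stood close to TGFα/c-Myc tumor 1, and the difference of 3.12 ± 0.54 (adjusted p = 0.000344) held in the 10 tumors alone (adjusted p = 0.0367) and within scanner 1 (2.54, adjusted p = 0.0106). Its fetal counterpart Igf2 was high in both groups, 4.47, 4.56 and 0.75 against 1.32 to 4.23 with a median of 3.14, and was not called (0.14 ± 0.61, adjusted p = 0.905). With Agilent's ratios Igf2 was called higher (1.63, adjusted p = 0.0272). Its probe was saturated on 4 Myc arrays and 1 TGFα/c-Myc array, so these Igf2 ratios are limited.

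Fetal liver genes as a list were called about as often as other genes. Of 34 oncofetal genes 3 were higher and 5 lower (median -0.44), near the shares over all genes of 10.1% and 11.2%. In the 10 tumors alone 0 were called higher and 1 lower, and with Agilent's ratios 4 and 5 (median -0.24). The median within scanner 1 was -0.053. Of 18 imprinted growth genes 1 was higher. Igf2bp3, an RNA-binding protein of fetal tissue, was called lower in the fits on all arrays, on the 10 tumors and within scanner 1. Igf2bp3 read 1.65, 0.14 and 0.012 against 1.84 to 5.61 with a median of 4.34, beside -0.0089, 0.32 and -0.044 in the control livers. All 7 Myc tumors lay above the control livers, TGFα/c-Myc tumors 2 and 3 lay among them and tumor 1 between, and the groups did not overlap. The probe was well above background on 2 of the 3 TGFα/c-Myc arrays. The difference was -3.34 ± 0.66 (adjusted p = 0.000955), 0.0293 in the 10 tumors alone, and -4.30 within scanner 1 (adjusted p = 0.008). Alpha-fetoprotein (Afp), the classical fetal plasma protein, read 5.74, 4.58 and 1.44 against 3.07 to 8.87 with a median of 6.24, and -0.52, 0.11 and -0.42 in the control livers. Afp was therefore far above normal liver in both groups, and the ranges overlapped. The probe was saturated on 4 Myc arrays and 1 TGFα/c-Myc array. Its difference of -2.72 ± 0.92 (adjusted p = 0.035) was not called in the 10 tumors alone (adjusted p = 0.206) and changed sign within scanner 1 (0.85, adjusted p = 0.7), Myc tumor 1 being the lowest Myc tumor. The fetal transcript H19 read 3.48, 2.62 and 0.061 against 1.87 to 4.11 with a median of 3.17 and was not called (-1.12 ± 0.53, adjusted p = 0.134), nor was glypican Gpc3 (-1.52 ± 0.89, adjusted p = 0.239), which ranged from -0.11 to 5.58 among the Myc tumors. The desaturase Scd2, which is made in fetal rather than adult liver, was lower (-3.55 ± 0.77, adjusted p = 0.00218; 0.0552 in the 10 tumors alone), yet TGFα/c-Myc tumor 1 read 4.77, inside the Myc range of 3.33 to 6.12 with a median of 5.87. Few biliary and progenitor markers were called, with 1 of 27 higher and 2 lower.

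The serum amyloid A genes, major acute phase genes of mouse liver, were high in most Myc tumors and not in the TGFα/c-Myc tumors. Saa2 read -1.99, -2.31 and -1.87 in the TGFα/c-Myc tumors and -1.41, 1.61 and -0.19 in the control livers, and in the Myc tumors it ran from -1.41 to 3.27 with a median of 2.48. All 3 TGFα/c-Myc tumors were below all 7 Myc tumors, but Myc tumor 1, the Myc tumor of scanner 1, read -1.41 and the other 6 at least 1.36. The difference of -3.94 ± 0.67 (adjusted p = 0.00029) held in the 10 tumors alone (adjusted p = 0.0251) and shrank to -0.65 within scanner 1 (adjusted p = 0.652). Saa3 was lower with a smaller difference within scanner 1 (-3.80 ± 0.56, adjusted p = 7.02e-05; within scanner 1 -1.34, adjusted p = 0.227), as was Saa1 (-3.12 ± 0.58, adjusted p = 0.000573; within scanner 1 -0.74, adjusted p = 0.555). Saa1 and Saa2 are near-identical genes whose probes may share transcript, and both probes were saturated on 3 Myc arrays. Lipocalin 2 (Lcn2), an iron-binding acute phase and neutrophil protein, was lower (-2.94 ± 0.56, adjusted p = 0.000692; within scanner 1 -1.66, adjusted p = 0.235). As a list, 9 of 28 acute phase genes were lower and 6 higher (median -0.27). Haptoglobin (Hp, 1.18 ± 0.33, adjusted p = 0.0133) and hepcidin (Hamp, 2.31 ± 0.77, adjusted p = 0.0339) were among the higher ones, and the Hp probe was saturated on 4 Myc arrays and 1 TGFα/c-Myc array. In the 10 tumors alone 4 acute phase genes were lower and 3 higher. With Agilent's ratios 10 were lower and 1 higher (median -0.80). Within scanner 1, 1 was higher and 0 lower (limma, 0 at an unadjusted p under 0.05), with a median of 0.36.

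Neutrophil markers were lower for 8 of 19 and higher for 0 (median -0.94). Called lower were 4 in the 10 tumors alone and 6 with Agilent's ratios, where the median was -2.12. The list's median level was 0.025, 0.07 and 0.0012 in the TGFα/c-Myc tumors. In the Myc tumors it was 0.36 to 1.50 with a median of 0.86, beside 0.0029 to 0.073 in the control livers. S100a8, a subunit of the neutrophil protein calprotectin, read 0.31, 0.51 and 0.0073 against 0.63 to 4.95 with a median of 4.30, Myc tumor 1 lying at 0.63. Its difference of -3.33 ± 0.86 (adjusted p = 0.00748) was -0.36 within scanner 1 (adjusted p = 0.897). The partner subunit S100a9 differed by -3.17 ± 1.00 (adjusted p = 0.0254) and had the opposite sign within scanner 1 (0.36, adjusted p = 0.919). Chil3, a lectin of activated myeloid cells, was lower (-3.58 ± 0.75, adjusted p = 0.00166), and its level in Myc tumor 1 was 3.13, close to the lowest scanner 2 Myc tumor at 3.16. Within scanner 1 limma called 0 neutrophil markers lower (0 at an unadjusted p under 0.05) and 1 higher, and the median difference was -0.082. For the serum amyloid and calprotectin genes the scanner, the scan day and the tumor group cannot be told apart beyond that 1 array.

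**Figure D3:**
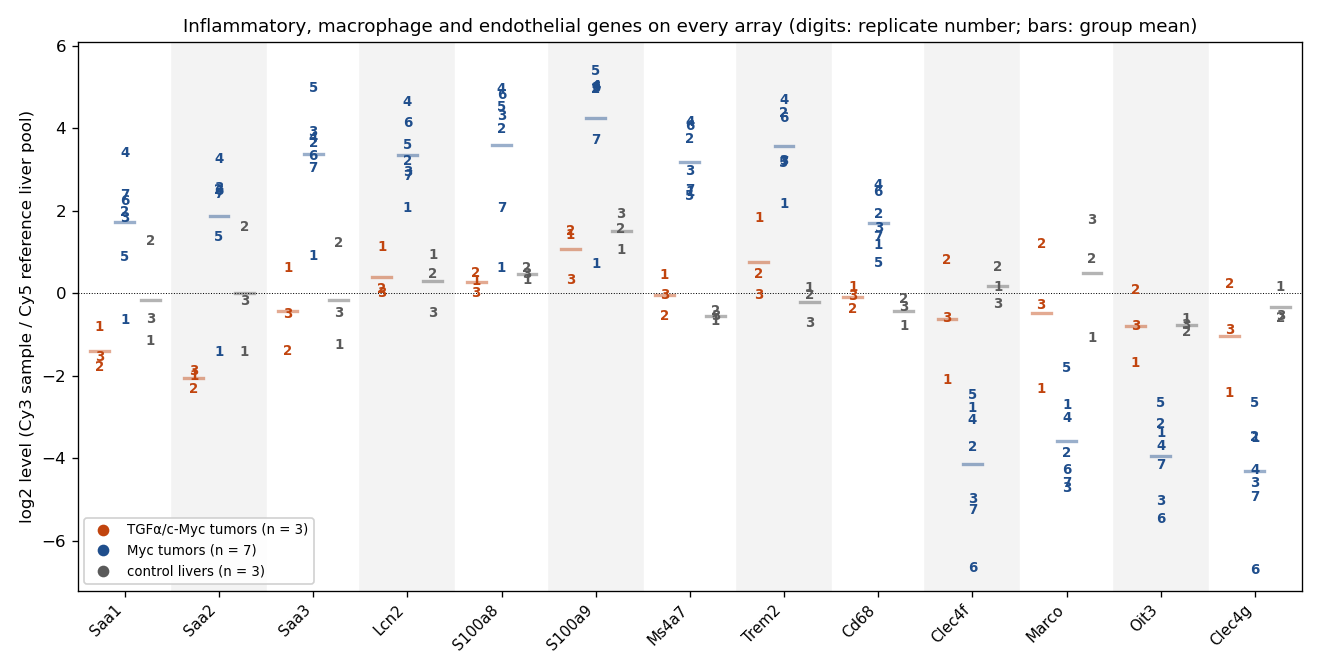
Log2 level of 13 inflammatory, macrophage and endothelial genes on each array, with digits giving the replicate number and bars the group mean. Myc tumor 1 reads -1.41 at Saa2 and 0.63 at S100a8, near the TGFα/c-Myc tumors, and 2.47 at Ms4a7, with the other Myc tumors.

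Macrophage genes differed in both directions. Of 26 monocyte, macrophage and Kupffer cell markers 11 were lower and 4 higher, with a median of -0.61. Called lower were 9 in the 10 tumors alone, 2 within scanner 1 and 12 with Agilent's ratios, and called higher 2 in the 10 tumors alone, 1 within scanner 1 and 3 with Agilent's ratios. The median within scanner 1 was -0.12. The higher ones were Clec4f, Marco, Cd163 and Vsig4, receptors of resident Kupffer cells. Clec4f read -2.11, 0.82 and -0.58 against -6.66 to -2.46 with a median of -3.73, and 0.15, 0.64 and -0.24 in the control livers. All TGFα/c-Myc tumors were above all Myc tumors (3.51 ± 0.65, adjusted p = 0.000581; 0.0515 in the 10 tumors alone). Cd163 was higher by 2.08 ± 0.52 (adjusted p = 0.00601; within scanner 1 2.69, adjusted p = 0.0392), Marco by 3.102 ± 0.67 (adjusted p = 0.00198) and Vsig4 by 1.77 ± 0.46 (adjusted p = 0.00758). The 11 lower ones were Lyz1, Ms4a7, Gpnmb, Trem2, Lyz2, Cd14, Cd68, C1qc, Adgre1, C1qb and Cd5l, of which Adgre1, the C1q genes and Cd5l are also made by Kupffer cells. Ms4a7 read 0.46, -0.54 and -0.039 against 2.37 to 4.16 with a median of 2.98, with -0.67, -0.43 and -0.55 in the control livers, and Myc tumor 1 at 2.47 lay inside the Myc range. Its probe was well above background on 2 of the 3 TGFα/c-Myc arrays. Ms4a7 differed by -3.23 ± 0.50 (adjusted p = 9.72e-05) and by -2.51 within scanner 1 (adjusted p = 0.0434). The lysosomal protein Cd68 was lower (-1.79 ± 0.31, adjusted p = 0.000362; within scanner 1 -1.26, adjusted p = 0.0483). Trem2 (-2.83 ± 0.63, adjusted p = 0.00262) and Gpnmb (-2.86 ± 0.67, adjusted p = 0.0037), lipid-handling macrophage genes, were lower too, although Gpnmb was well above background on only 1 of the 3 TGFα/c-Myc arrays. Lysozyme Lyz1 was lower (-3.44 ± 0.82, adjusted p = 0.00448); its sequence is close to that of Lyz2, and the probes may share transcript.

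Of 31 chemokines and NF-kB targets 8 were lower and 1 higher, among the lower the adhesion molecule Vcam1 (-2.64 ± 0.48, adjusted p = 0.000493) and the NF-kB inhibitor Tnfaip3 (-1.50 ± 0.35, adjusted p = 0.00377). Of the list, 3 were lower in the 10 tumors alone and 4 with Agilent's ratios, with 1 higher in each. Within scanner 1 limma called 0 lower (5 at an unadjusted p under 0.05) and 1 higher, and Vcam1 was -2.34 (adjusted p = 0.0763). Of the interferon response genes, 6 of 36 were higher and 2 lower (median 0.54). In the 10 tumors alone 1 was higher and 0 lower (limma, 2 lower at an unadjusted p under 0.05). With Agilent's ratios 4 were higher and 0 lower (limma, 3 lower at an unadjusted p under 0.05). In the fit on all arrays, these genes went both ways. Beta-2 microglobulin (B2m) was higher by 2.14 ± 0.44 (adjusted p = 0.00127) and Oas2 by 0.77 ± 0.24 (adjusted p = 0.0219), while Usp18 was lower (-1.06 ± 0.36, adjusted p = 0.0373). Lymphocyte and dendritic cell markers showed 1 higher and 2 lower of 26.

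Markers of the liver sinusoidal endothelium were higher in the TGFα/c-Myc tumors in all 3 fits. Of 19 endothelial genes 12 were higher and 1 lower (median 1.46), with 10 and 1 in the 10 tumors alone and 11 and 0 within scanner 1. The list's median level was -0.44, 0.24 and -0.18 in the TGFα/c-Myc tumors, -1.83 to -0.53 with a median of -1.43 in the Myc tumors and -0.12 to 0.061 in the control livers, so the TGFα/c-Myc tumors lay nearer to normal liver than any Myc tumor. Oit3 read -1.68, 0.086 and -0.79 against -5.46 to -2.66 with a median of -3.69 (3.14 ± 0.56, adjusted p = 0.000413; within scanner 1 2.60, adjusted p = 0.0486). The lectin Clec4g was higher by 3.28 ± 0.64 (adjusted p = 0.000913), the scavenger receptor Stab2 by 1.47 ± 0.30 (adjusted p = 0.00142), the orphan receptor Gpr182 by 2.15 ± 0.38 (adjusted p = 0.000359) and the VEGF receptor Kdr by 1.75 ± 0.34 (adjusted p = 0.000805). The marker that was lower was endomucin (Emcn), a surface sialomucin of endothelium, which read 0.46, 0.036 and -0.093 against 0.81 to 1.59 with a median of 0.92 (-0.92 ± 0.24, adjusted p = 0.00798). Matrix and stellate cell genes were called near the shares over all genes (10.1% higher and 11.2% lower), with 3 of 26 higher and 4 lower. The lower ones included the basement membrane collagen Col4a1 (-1.57 ± 0.33, adjusted p = 0.0018; within scanner 1 -1.95, adjusted p = 0.0121) and the protease inhibitor Timp1 (-2.20 ± 0.39, adjusted p = 0.000427), whose level in Myc tumor 1 was 0.20 against 1.50 to 3.92 in the others.

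Cell cycle genes lay above the control livers in every tumor, only narrowly so in Myc tumor 5, and those that were called were mostly lower with TGFα. The cell cycle list had a median level of 1.72, 0.60 and 0.35 in TGFα/c-Myc tumors 1, 2 and 3, of 0.02 to 2.76 with a median of 2.44 in the Myc tumors and of -0.28 to -0.14 in the control livers. The lowest Myc tumor was tumor 5, at 0.02, and the other 6 read 2.20 or more. Of 34 genes 13 were lower and 1, Ccnd1, higher (median -0.87), but limma called 0 lower in the 10 tumors alone (13 at an unadjusted p under 0.05) and 12 within scanner 1. With Agilent's ratios the counts were 1 lower and 1 higher and the sign of the median turned, to 0.091. Cyclin B1 (Ccnb1), needed for entry into mitosis, was lower (-2.33 ± 0.63, adjusted p = 0.0101; 0.117 in the 10 tumors alone), as was Cdk1 (-1.25 ± 0.36, adjusted p = 0.0143). The proliferation markers Mki67 (-0.95 ± 0.74, adjusted p = 0.398) and Birc5 (-0.50 ± 0.79, adjusted p = 0.705) were not called. DNA replication genes were lower for 6 of 30, such as the helicase partner Gins2 (-1.79 ± 0.36, adjusted p = 0.00119), and limma called 0 in the 10 tumors alone (8 lower at an unadjusted p under 0.05).

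Ribosome biogenesis genes, a core Myc target set, were lower for 7 of 30 and higher for 0 (limma; 1 at an unadjusted p under 0.05), with a median of -0.41. TGFα/c-Myc tumor 1, at a list median of 1.36, lay inside the Myc range of -0.083 to 1.63 with a median of 1.45. Polr1c, a subunit of RNA polymerases I and III, read 0.25, -0.47 and -0.13 against 0.76 to 1.33 with a median of 1.11, with -0.23, -0.17 and -0.20 in the control livers. It did not overlap and was called in the 3 fits (-1.21 ± 0.16, adjusted p = 2.51e-05; 0.0084 in the 10 tumors alone; 0.00928 within scanner 1). Npm1 was not called (-0.42 ± 0.40, adjusted p = 0.5). The ribosome genes called lower were 1 in the 10 tumors alone, 9 within scanner 1 and 5 with Agilent's ratios. Nucleotide and polyamine synthesis genes were lower for 7 of 24 (1 in the 10 tumors alone, 7 within scanner 1 and 5 with Agilent's ratios), including ornithine decarboxylase Odc1 (-1.52 ± 0.47, adjusted p = 0.0211; 0.0935 in the 10 tumors alone), whose probe was saturated on 2 Myc arrays. Glycolytic genes, mostly isozymes that hepatocytes make little of, were lower for 10 of 21 and higher for 1, with 2 in the 10 tumors alone, 4 within scanner 1 and 9 with Agilent's ratios called lower. The lower ones include the liver-type phosphofructokinase Pfkl (-1.37 ± 0.29, adjusted p = 0.00184). The lactate exporter Slc16a3 read 0.93, 0.29 and 0.029 against 1.24 to 4.03 with a median of 3.27 (-2.39 ± 0.46, adjusted p = 0.000756; within scanner 1 -2.01, adjusted p = 0.04), and no TGFα/c-Myc tumor reached the lowest Myc tumor. Pyruvate kinase Pkm was lower (-1.99 ± 0.56, adjusted p = 0.0123) as was Pgk1 (-1.54 ± 0.29, adjusted p = 0.000583), while the phosphofructokinase Pfkm was higher by 1.46 ± 0.22 (adjusted p = 7.21e-05). Phgdh, the first enzyme of serine synthesis, was above the control livers in every tumor. It read 5.53, 5.55 and 4.28 against 3.54 to 6.60 with a median of 5.93, beside 0.11, 1.17 and 0.57 in the control livers, and was not called (-0.33 ± 0.71, adjusted p = 0.795). The next enzyme, Psat1, was lower (-2.88 ± 0.78, adjusted p = 0.0106; 0.0552 in the 10 tumors alone), and asparagine synthetase Asns was not called (-2.08 ± 0.83, adjusted p = 0.0751).

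Among the largest differences were genes outside these lists. S100g, a calcium-binding protein known from the intestine, read 2.62, 0.50 and 0.043 against 4.60 to 6.86 with a median of 5.75, with 0.038, -0.03 and 0.051 in the control livers. The 7 Myc tumors and TGFα/c-Myc tumor 1 lay above the control livers by more than 2 log2 units, and the groups did not overlap (-4.78 ± 0.61, adjusted p = 2.4e-05; within scanner 1 -3.54, adjusted p = 0.034). Lypd8, an intestinal surface protein, read 0.79, 0.33 and 0.0091 against 2.32 to 6.35 with a median of 4.38 (-4.20 ± 0.64, adjusted p = 9.49e-05; within scanner 1 -3.76, adjusted p = 0.00752). The retinol-binding protein Rbp7 was lower (-3.58 ± 0.60, adjusted p = 0.000266), well above background on 1 of 3 TGFα/c-Myc arrays and on all 7 Myc arrays, as was the metalloprotease Adam8 (-3.48 ± 0.61, adjusted p = 0.000345). On the other side, Ido2, a tryptophan-degrading enzyme, read -1.40, 1.06 and -0.52 against -6.17 to -1.58 with a median of -5.08, the groups lying apart with Myc tumor 5 nearest (4.26 ± 0.60, adjusted p = 4.79e-05; within scanner 1 3.49, adjusted p = 0.00306). The monocarboxylate carrier family member Slc16a11 read -0.24, 1.48 and 0.44 against -4.07 to -2.06 with a median of -3.19, more than 1 log2 unit apart (3.52 ± 0.37, adjusted p = 5.89e-06; within scanner 1 3.08, adjusted p = 0.00222). The retinol dehydrogenase Rdh16f2 was higher by 4.43 ± 0.93 (adjusted p = 0.00163) and the G protein regulator Rgs16 by 3.49 ± 0.67 (adjusted p = 0.000816), though Rgs16 ran from -3.75 to 0.65 among the control livers.

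Of the folding and secretory pathway genes, 6 of 25 were higher and 1 lower (median 0.49). Dnajc3, a chaperone of the endoplasmic reticulum, was higher by 1.88 ± 0.28 (adjusted p = 6.88e-05; within scanner 1 adjusted p = 0.00168) and Hsp90b1 by 1.26 ± 0.19 (adjusted p = 0.000103). Proteasome genes were split, 5 higher and 8 lower of 31. The cell cycle inhibitor Cdkn1a was lower (-1.79 ± 0.45, adjusted p = 0.00697; -0.03, adjusted p = 0.978 with Agilent's ratios; -0.95, adjusted p = 0.436 within scanner 1), as was the transferrin receptor Tfrc (-2.16 ± 0.50, adjusted p = 0.0035). Clock genes differed in opposite directions, Dbp being higher by 2.51 ± 0.61 (adjusted p = 0.00501) and Arntl, whose daily peak lies opposite to that of Dbp, lower (-1.17 ± 0.32, adjusted p = 0.0113), and the labels give no hour of sampling. A probe for 18S ribosomal RNA (Rn18s), read 1.85, 3.43 and 1.75 against -2.95 to 1.02 with a median of -1.01 (3.31 ± 0.70, adjusted p = 0.00173), and the Lars2 probe was higher too (3.21 ± 0.79, adjusted p = 0.00563). This ribosomal RNA signal differed between the groups in the same direction as the hepatocyte genes, and its part in those results was not tested. The female-specific transcript Xist ran from -2.86 to 0.86 in the TGFα/c-Myc tumors and, more widely, from -6.67 to 0.051 in the Myc tumors. It was not called (1.98 ± 1.87, adjusted p = 0.497, limma). Of 18 male-biased liver genes 5 were higher and 0 lower (median 1.91), and of 20 female-biased genes 3 and 0 (median 0.67). With a sex score as a covariate, 95 of the 95 called genes followed across the alternatives stayed called.

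Of the called genes given with a difference here, Afp, Alb, B2m, Ccnb1, Ccnd1, Cdk1, Clec4f, Fetub, Gins2, Hnf4a, Hp, Lars2, Mbl2, Odc1, Otc, Pfkl, Pkm, Psat1, Rn18s, S100a9, Scd2, Timp1, Usp18 and Vsig4 were not called in the 10 tumors alone. With Agilent's ratios Afp, Alb, Ccnb1, Cdk1, Cdkn1a, Cyp1a2, Emp1, Gins2, Gpnmb, Hamp, Hnf4a, Hp, Hsp90b1, Oas2, Otc, Psat1, S100a8, S100a9, Usp18 and Vsig4 were not called, all with an unchanged sign, and those whose difference shrank by more than 2-fold were Ccnb1 (-0.13), Cdk1 (-0.20), Cdkn1a (-0.03), Hp (0.48), Hsp90b1 (0.55), Oas2 (0.38) and Psat1 (-1.40) on the log2 scale. Besides the saturated probes already given, the probes of Saa3, Scd2, Pgk1, Phgdh, Hsp90b1, H19 and Npm1 were saturated on 1 Myc array each and that of Cps1 on 4, which limits those differences.

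Several list counts stayed within 1.5 times of the full counts without TGFα/c-Myc tumor 3 and Myc tumor 5, the tumors with the least Myc signal, when 4872 of 22273 genes were called (21.9%; 10.4% higher and 11.4% lower). Plasma proteins then gave 15 higher and 1 lower, clotting and complement 17 and 1, cytochrome P450 genes 10 and 0, and the transcription factors 13 and 0. The endothelial list gave 13 higher and 0 lower, the macrophage list 4 and 10, and the cell cycle list 0 and 14. Counts moved by 1.5 times or more for neutrophil markers (5 lower), DNA replication (9 lower), the acute phase genes (4 higher, with 10 lower) and the interferon genes (3 higher). They also did for the oncofetal genes (3 lower), amino acid breakdown (13 higher), glucose and glycogen (7 higher), biliary markers (4 higher) and the Mup genes (0 higher). Heme, retinoid and metal handling (2 higher), fatty acid and cholesterol synthesis (8 lower) and the proteasome (3 higher) moved too, as did some other lists with few calls.

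**Figure D4:**
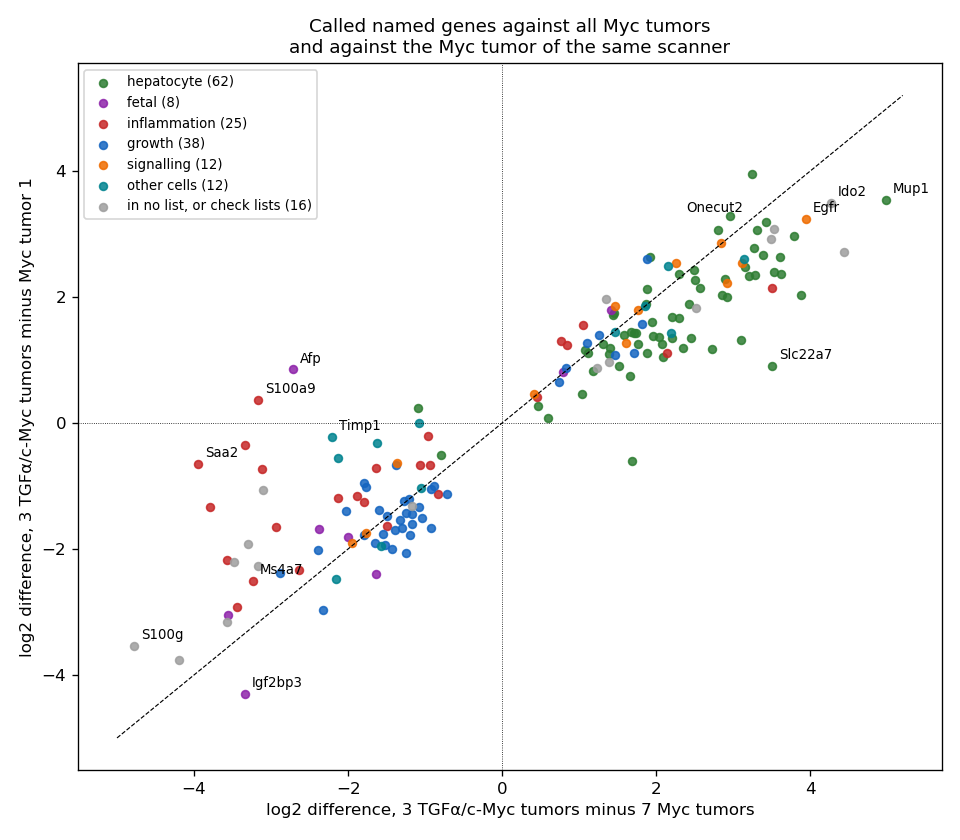
Log2 difference of the 173 called named genes, with the 3 TGFα/c-Myc tumors set against all 7 Myc tumors (horizontal axis) or against Myc tumor 1 alone, the Myc tumor of the same scanner (vertical axis), coloured by list role, and a dashed line of equality. Of the 173 points 168 keep their sign, and Afp and S100a9 are among the 5 that do not.

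Within scanner 1, 168 of the 173 called named genes kept their sign. By role, 60 of 62 hepatocyte genes, 38 of 38 growth genes and 24 of 25 inflammatory genes kept it. Both comparisons share the 3 TGFα/c-Myc tumors and Myc tumor 1, so the signs are not independent.

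The TGFα/c-Myc tumors differed among themselves. Tumor 1 was the one most like the Myc tumors, with plasma proteins at -1.17 (tumors 2 and 3 at 0.55 and 0.78), cytochrome P450 genes at -2.65 (-1.56 and -1.10), cell cycle genes at 1.72 (0.60 and 0.35) and oncofetal genes at 1.87 (0.73 and 0.026). Tumor 1 was on the TGFα/c-Myc side for Onecut1, Apoc3, the endothelial list and the serum amyloid genes. Tumor 3, on a slide of its own among the 3, was closest to the control livers on the oncofetal, ribosome and nucleotide lists (0.026, 0.10 and 0.085). The correlation of log2 levels between arrays over all genes was 0.63 to 0.736 among the TGFα/c-Myc tumors and 0.578 to 0.904 among the Myc tumors.

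The Myc tumors varied widely in genes of the perivenous zone of the liver lobule, which beta-catenin signalling switches on. The median of 18 beta-catenin target genes was -2.75, -2.64, 0.63, 0.65, -1.17, -3.31 and 0.13 in Myc tumors 1 to 7, -1.31, -0.89 and -0.28 in the TGFα/c-Myc tumors and -0.05 to 0.26 in the control livers. Myc tumors 3, 4 and 7 were among or above the control livers, Myc tumors 1, 2 and 6 more than 2 log2 units below them, and Myc tumor 5 and the TGFα/c-Myc tumors lay between. Glutamine synthetase (Glul), the classical marker of the hepatocytes around the central vein, read 1.18, 0.73 and 0.85 in Myc tumors 3, 4 and 7 and -3.65, -2.98, -3.22 and -3.96 in Myc tumors 1, 2, 5 and 6, against -2.79, -1.71 and -1.93 in the TGFα/c-Myc tumors. The glutamate carrier Slc1a2 ran from -7.09 to 0.87 with a median of -3.57 among the Myc tumors, and the transcription factor Tbx3 from -5.46 to 1.38 with a median of -2.56. Between the groups limma called 0 of the 18 target genes (1 lower and 0 higher at an unadjusted p under 0.05), at a median of 0.13, while 8 were higher and 1 lower within scanner 1, where only Myc tumor 1 stands for its group. The deposited files of Myc tumors 3 and 4 carry a shared number in their names that may mark 1 animal, so the 7 tumors may come from fewer than 7 animals. With these 2 tumors averaged, 4490 genes were called.

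**Figure D5:**
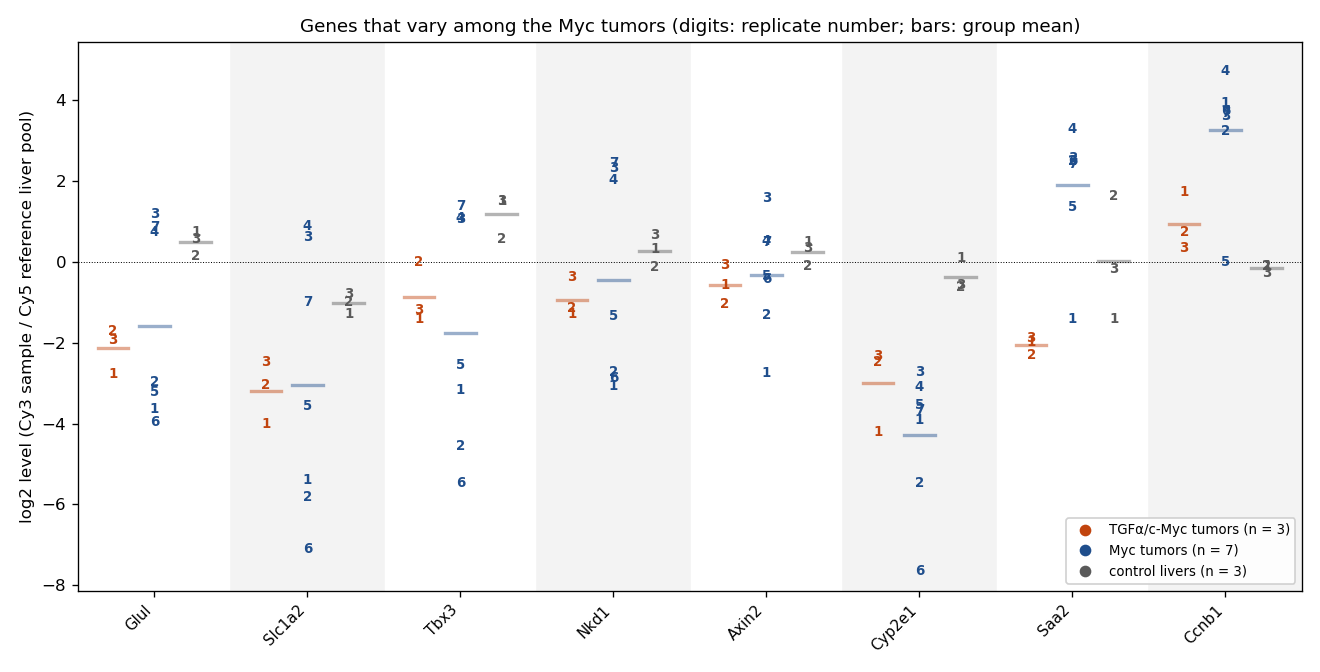
Log2 level of 6 perivenous or beta-catenin target genes and of Saa2 and Ccnb1 on each array, with digits giving the replicate number and bars the group mean. Myc tumors 3, 4 and 7 read 1.18, 0.73 and 0.85 at Glul, while the other 4 Myc tumors read -2.98 or lower.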

How the data were processed

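Deposited scanner files of 34 two-channel arrays were read, of which 10 tumors and 3 control livers are described. Per the file headers, spots were extracted with Agilent Feature Extraction 9.1.3.1, or 10.7.3.1 for Myc tumors 2 to 7. The deposited spot intensity values (mean signal and local background median of each channel) are not normalized, and the deposited LogRatio is log10 of Cy5 over Cy3 after the background subtraction and dye normalization that the file headers give. The submitters' processing notes name limma without a version, and no genome build was named in the labels or headers. The deposited value table of the series, on a log2 scale in the authors' own normalization, was used as an alternative. Set against the scanner values, that table runs as reference over sample on all 34 arrays, and its sign was turned.

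From the spot intensities, limma 3.58.1 in R 4.3.3 corrected the background (normexp, offset 50) and normalized each array by loess, with control spots at weight 0 and outlier spots left out. The offset pulls the ratios of dim spots toward 0. Spots of a probe were averaged, 32788 of 41174 probes were kept for clearing the background flag of the Cy3 channel on 3 or more arrays, and a gene was read at its brightest kept probe. Genes were named through RefSeq accessions (14845), symbols or synonyms (2613) or the name in the file (4815). A linear model with 1 coefficient for each of the 10 groups was fitted over 34 arrays, and the contrast was TGFα/c-Myc minus Myc tumors, with Benjamini-Hochberg adjustment over 22273 genes at 0.05. The procedure was tested on simulated data. The p-values of the main fit measure the difference against the spread within the 10 groups of all 34 arrays, not within the tumors alone. The small number of tumors limits the precision.

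The tumors and the gene lists were chosen with earlier results of these data known. Named genes were a fixed panel, the 15 genes with the largest non-overlapping called difference on each side, and the 4 smallest p-values of each list. Trem2, Gpnmb, Marco, Cd163, Vsig4, Clec4g, Kdr, Stab2, Emcn, Hamp, Hp, Rn18s, Lars2, Glul, Slc1a2, Tbx3, Nkd1 and Axin2 were added after their values were seen. The alternatives were other background and normalization choices, filters, subsets of arrays, batch terms and each tumor left out, and 4 of them were chosen after seeing the data. The other livers and tumors of the series entered the fit and are not described.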

Additional observations from a re-analysis of the deposited data

Results flagged for a closer look

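In 19 of 171 groups of Myc tumor values tested (11.1%), 1 tumor stood apart from the other 6 by a gap that chance gives in about 1 of 20 groups. Myc tumor 1, the Myc tumor of scanner 1, stood apart at Slc22a7 (-1.03), Igf2 (1.32), Saa2 (-1.41) and S100a9 (0.723), where 6 Myc tumors scanned on the other scanner lay together.

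Myc tumor 5 stood apart in growth genes. It read -0.014 at Ccnb1, 0.0979 at Cdk1, 0.349 at Mki67, 0.0974 at Birc5 and -0.36 at Pgk1, and its list medians were 0.0199 for the cell cycle, 0.00203 for DNA replication and -0.0833 for ribosome biogenesis. These levels are close to those of the reference liver, and this tumor also had the lowest Myc signal of the 7. It stood apart as well at Spred1 (-0.676) and in the bile acid list (-0.803).

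Myc tumor 7 stood apart at Hp (-1.72) and Tnfaip3 (0.384). Myc tumor 6 had the highest list medians for chemokines and NF-kB targets (1.11) and for stellate and matrix genes (1.76), and Myc tumor 3 for erythroid genes (1.39).

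Among tumors outside the comparison, 1 tumor labelled with the TGFα transgene alone gave Myc signal. TGFα tumor 1 read 1.37, 3.28 and 3.55 at probes A_51_P102096, A_52_P108346 and A_52_P278549, above every control liver. It was hybridised on the same slide as TGFα/c-Myc tumor 3, which read low at Myc.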

How the results depend on the processing

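With 4738 genes called (2241 higher and 2497 lower in the TGFα/c-Myc tumors), these alternatives moved a count by more than 1.5 times. The 10 tumor arrays alone gave 1509 (766 and 743), and tumors with control livers 2319 (1157 and 1162). A scanner term gave 1469 (551 and 918), a scan day term 680 (190 and 490), and scanner 1 alone 3177 (1176 and 2001). Scanner 2 and the scan days of Myc tumors 2 to 7 held no other group. The contrast in the scanner, scan day and scanner 1 fits therefore rested on Myc tumor 1 alone. Adding a 2-fold minimum gave 1892 (923 and 969). A further 3 alternatives, chosen after seeing the data and all on tumor arrays alone, gave 2173 (1045 and 1128) without Myc tumor 5 and TGFα/c-Myc tumor 3, 3038 with array weights (1544 lower), and 2808 (1194 and 1614) with Agilent's ratios. Leaving out each tumor gave totals from 1445 (without TGFα/c-Myc tumor 2) to 5998 (without Myc tumor 5), 620 to 2746 higher and 825 to 3252 lower. The cause was not tested, beyond the fewer arrays in most of these fits.

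Higher calls were 47.3% of all calls, and 27.9% with the scan day term, 37.5% with the scanner term and 37.0% within scanner 1. The authors' value table gave 42.0%, with a median difference over all genes of -0.18. With the scan day term the sign reversed for Ppara (-0.088), Rgs16 (-1.44), Rdh16f2 (-0.032), Afp (2.72), Saa1 (1.77), Saa2 (2.28), Saa3 (1.18), S100a8 (0.065), S100a9 (1.26), Timp1 (0.091) and Usp18 (0.61). With the scanner term and within scanner 1 it reversed for Afp (0.85) and S100a9 (0.36). In these fits, the scan day term included, Myc tumor 1 alone stood for its group. No other group shared the scanner or the scan days of Myc tumors 2 to 7. Why Myc tumor 1 differed from them was not tested, nor was the cause of the shift in the authors' table.

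The replicate number as a block, on the 6 arrays with shared numbers, called 0 genes by limma, with 5726 at an unadjusted p under 0.05. The deviations of same-numbered tumors correlated at 0.142, 0.0491 and -0.0414, so the numbers do not pair the tumors. Values within each scan day or slide were not run, since no day or slide held both groups. Signal over background limits the dim genes: 178 called genes were not well above background in any TGFα/c-Myc tumor, and 32 in none of the Myc tumors.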
